A study of Arabidopsis thaliana with 18 samples.

Results

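SWEET and UMAMIT proteins are the membrane carriers through which plant cells release sugars and amino acids. The genes described here were taken from the annotated table of transcript levels by name and annotation: the gene name starts with UMAMIT or SWEET, or the description or Swiss-Prot text holds "WAT1-related" or "sugar transporter SWEET". That rule found 66 of 33082 genes, of which 45 carry a UMAMIT symbol, 17 carry a SWEET symbol and 4 matched for other reasons. The 4 are SWEETIE, a HEAT-repeat protein studied for its effect on carbohydrate metabolism that shares only the first letters of its name with the sugar carriers; AT3G02690, annotated as a chloroplastic WAT1-related protein; and AT1G09997 and AT3G07305, which RefSeq lists as non-coding RNAs. The 45 UMAMITs include 2 pseudogenes, UMAMIT16-psi and UMAMIT43-psi. The rule uses no measured value.

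Whole Arabidopsis thaliana seedlings (accession Col-0) were grown upright on plates for 9 days before treatment, and their RNA was sequenced. The wild type (WT) was compared with the triple mutant labelled bon123t, called bon123 here, in which BON1, BON2 and BON3, genes for copines that bind membranes in a calcium-dependent way, are mutated. Seedlings of each genotype were mock treated, or given ABA (abscisic acid, a hormone of seed dormancy and water shortage) at 100 µM or the sugar alcohol mannitol, which withdraws water, at 300 mM, all on 1/2 MS medium. Each of the 6 groups has 3 libraries, 18 in all, and nothing in the labels says whether the 3 came from separate growth batches, so a p-value measures the spread between these libraries. The duration is uncertain, because the sample labels give 12 h and the series text gives 24 h. What the letter t marks and which alleles were combined are not given in the sources used here.

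SWEETs are small membrane proteins that let sugars pass down their gradient in either direction. In Arabidopsis the family has 4 clades, in which clades I and II mostly carry hexoses, clade III carries sucrose and serves phloem loading, nectar, seed filling and pollen, and clade IV sits on the vacuole and moves fructose and glucose. UMAMITs (usually multiple acids move in and out transporters) are the best-known family of amino acid exporters in plants, and several of them release amino acids from the phloem, from the seed coat or from roots. The family is related to nodulin-21 of legumes and includes WAT1, which exports auxin from the vacuole. Apoplastic sugar and amino acids released by these carriers feed neighbouring cells, and also microbes.

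Levels are in TPM, a share of all transcripts of a library that is corrected for transcript length, so levels may be compared between genes. The library totals are 999989 to 999999 by construction, so read depth is unknown. Differences are log2 fold changes on the log2(TPM + 1) scale with their standard error (SE), which understate the change of low genes. They were tested with limma across all 21727 genes that reached 1 TPM in at least 3 libraries, and a gene is called higher or lower at a Benjamini-Hochberg adjusted p under 0.05 over all of these genes. The other scalings referred to below are division by median-of-ratios factors and removal of a trend on gene length. Of the 66 genes, 49 passed that filter: 11 SWEETs, 36 UMAMITs, SWEETIE and AT3G02690. The 17 that did not were SWEET5, 6, 7, 8, 9 and 10, UMAMIT7, 9, 15, 23, 24, 26 and 35, both pseudogenes and both non-coding RNAs. Their highest level in any library was 2.41 TPM, in UMAMIT35, and SWEET9, a nectary carrier, UMAMIT16-psi and AT3G07305 were listed at 0 in all 18 libraries.

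The treatments and genotypes were checked on genes outside the set. RAB18, a dehydrin switched on by ABA, read 38.6, 77.0 and 46.6 TPM in WT mock, 2860.3, 2414 and 3069 TPM in WT ABA, and 2982, 4380.0 and 3782 TPM in WT mannitol. In bon123 it read 5.24, 4.47 and 5.23 TPM in mock, 3260.2, 3286 and 3663 TPM in ABA, and 26.5, 15.4 and 18.4 TPM in mannitol, so the mannitol libraries of the mutant stand far below those of WT for this gene. The range for BON1 was 10.13 to 18.3 TPM over the WT libraries and 0.25 to 1.66 TPM over those of bon123. BON2 ranged from 21.3 to 36.3 TPM and from 2.85 to 16.2 TPM in the same order, and BON3 was very low, with no WT library over 0.17 TPM and a range of 0.22 to 0.75 TPM in bon123. Every bon123 library thus lies above every WT library for BON3, which does not follow the label as BON1 and BON2 do. The summed level of 4 leaf and photosynthesis markers (RBCS1A, LHCB3, LHCB6, GLK1) was 21858 to 23305 TPM in WT mock, 14474 to 17261 in WT ABA and 9144 to 12447 in WT mannitol, against 586 to 848, 73.0 to 101 and 595 to 677 in the same treatments of bon123. All 4 are detected in every group, and their part in the genotype differences given here was not tested. In whole seedlings, fewer cells of a type and less RNA per cell cannot be told apart. The median-of-ratios factors of the treated bon123 libraries were 0.634 to 0.888, below those of all other libraries, 0.996 to 1.246. Library 3 of bon123 ABA had the lowest, at 0.634, against 0.808 to 0.888 in the other treated bon123 libraries. Scaling therefore bears on every comparison of treated bon123 with another group.

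In the 250 bases before the annotated transcript start, genes that rise after ABA differ in how many copies they hold of ACGTG, the core of the ABA response element bound by bZIP factors of the AREB/ABF type. The windows of SWEET15, SWEET4, SWEET13 and UMAMIT20, which rose with ABA and hold the match, are shown beside UMAMIT33, which rose and does not hold it, and SWEET16, which fell. They were picked after the matches had been counted, to show this range. They are from the RefSeq genome TAIR10.1, 5′ to 3′ on the strand of the gene, with each ACGTG or its reverse complement CACGT in capitals. The positions are chr5:4183355-4183604, chr3:10409978-10410227, chr5:20667313-20667562 and chr3:5686545-5686794 on the minus strand, and chr4:5238523-5238772 and chr4:13940057-13940306 on the plus strand.
SWEET15: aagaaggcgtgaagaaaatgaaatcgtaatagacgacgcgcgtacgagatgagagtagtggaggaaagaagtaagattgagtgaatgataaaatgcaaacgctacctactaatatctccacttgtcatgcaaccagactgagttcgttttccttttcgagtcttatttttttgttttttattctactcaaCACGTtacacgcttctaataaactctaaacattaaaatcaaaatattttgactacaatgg
SWEET4: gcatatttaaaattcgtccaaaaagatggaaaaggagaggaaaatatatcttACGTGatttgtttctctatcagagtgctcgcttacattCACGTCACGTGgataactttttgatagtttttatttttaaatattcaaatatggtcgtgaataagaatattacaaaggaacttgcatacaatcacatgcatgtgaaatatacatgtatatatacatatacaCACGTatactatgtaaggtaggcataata
SWEET13: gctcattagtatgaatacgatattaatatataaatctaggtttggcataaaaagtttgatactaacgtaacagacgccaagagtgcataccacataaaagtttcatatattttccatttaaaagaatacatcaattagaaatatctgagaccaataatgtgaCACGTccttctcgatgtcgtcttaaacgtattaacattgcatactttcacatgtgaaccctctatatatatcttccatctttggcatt
UMAMIT20: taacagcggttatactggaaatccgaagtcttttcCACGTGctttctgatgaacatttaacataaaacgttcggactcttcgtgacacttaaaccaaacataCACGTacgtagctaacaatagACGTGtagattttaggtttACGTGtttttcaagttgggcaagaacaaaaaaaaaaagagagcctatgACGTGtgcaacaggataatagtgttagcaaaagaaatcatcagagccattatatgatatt
UMAMIT33: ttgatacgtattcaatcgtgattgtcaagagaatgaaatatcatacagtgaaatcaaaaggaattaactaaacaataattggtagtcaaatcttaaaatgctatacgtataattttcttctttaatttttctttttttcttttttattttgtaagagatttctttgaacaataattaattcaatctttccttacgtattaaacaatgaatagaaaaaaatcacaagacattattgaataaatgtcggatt
SWEET16: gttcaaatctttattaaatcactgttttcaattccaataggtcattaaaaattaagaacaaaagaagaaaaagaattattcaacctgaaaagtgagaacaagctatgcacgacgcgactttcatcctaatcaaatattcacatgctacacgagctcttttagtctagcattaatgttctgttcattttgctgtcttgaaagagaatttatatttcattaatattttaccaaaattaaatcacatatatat
UMAMIT20 holds 6 matches, SWEET4 holds 5, SWEET15 and SWEET13 hold 1 each, and UMAMIT33 and SWEET16 hold 0, counting both strands, so that the palindrome CACGTG counts as 2 overlapping matches. The windows of SWEET12, UMAMIT10 and SWEET2, also called higher by ABA in WT, hold 0 as well. Of 27443 windows of the same length across the annotation, 22.9% hold at least 1 match, as do 11 of the 49 tested genes of the set. Among these, the match is present in 7 of the 19 called higher by ABA in WT, 3 of the 14 called lower and 1 of the 16 not called. How many windows hold a match among all genes called by ABA was not counted, so these counts have no like reference. Of all 21727 tested genes, 18.9% were called higher and 30.6% lower, which is a share of calls and not of windows. The dehydration-responsive core CCGAC is in 12.0% of all windows and 2 of the 49, and the W-box core TTGAC, bound by WRKY factors, in 44.9% and 22 of the 49. A match is a string of letters in the window and not a measured binding site.

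**Figure D1:**
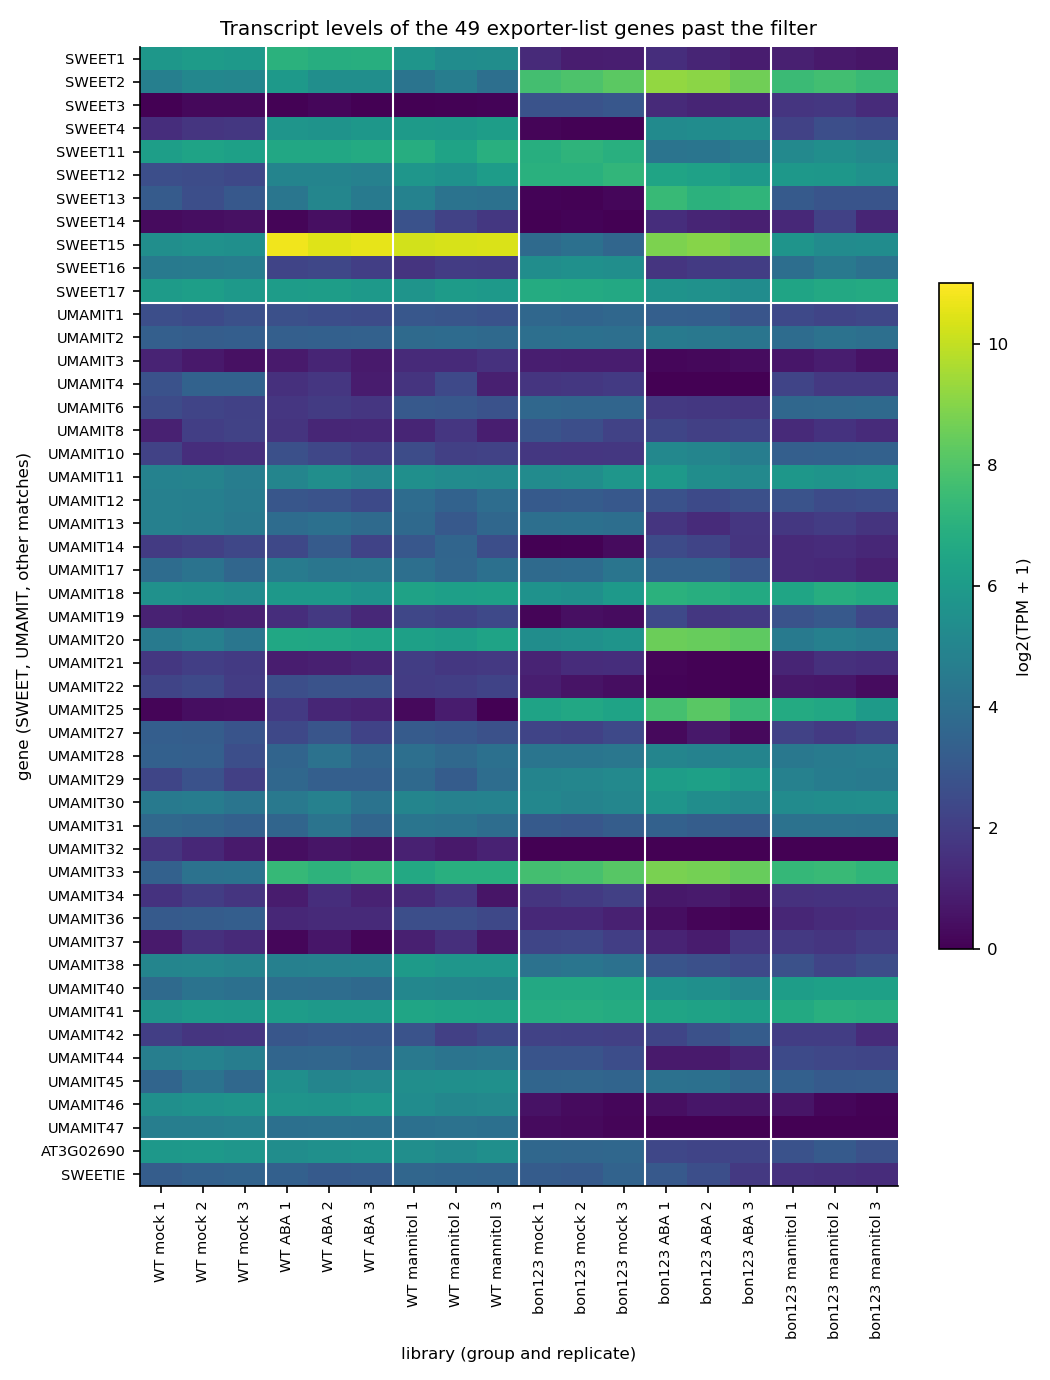
Level of each of the 49 tested genes (rows) in each of the 18 libraries (columns), as log2(TPM + 1) from dark (0) to yellow (high), with white lines between groups and between SWEETs, UMAMITs and the other matches. SWEET15 is the brightest row in the WT ABA and WT mannitol libraries, and UMAMIT25, UMAMIT46, UMAMIT47, SWEET1 and SWEET2 change level at the line between the genotypes.

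SWEET15 dominates the set after treatment of WT. This clade III sucrose carrier, also known as SAG29, is known for its expression in senescing leaves and in the seed coat. Its level was 42.9, 45.9 and 44.2 TPM in WT mock, 1717, 1420.3 and 1564 TPM in WT ABA, and 1227, 1285 and 1317 TPM in WT mannitol. The treated libraries of WT lie far above the mock ones, and SWEET15 alone made up 56.6% of the summed level of all 66 genes in WT ABA and 51.4% in WT mannitol, against 5.0% in WT mock. The log2 fold change was 5.11 ± 0.12 (SE; adjusted p = 2.34e-13) after ABA and 4.82 ± 0.12 (SE; adjusted p = 5.71e-13) after mannitol. In bon123 the gene read 12.8, 15.6 and 11.4 TPM in mock, 453, 515 and 420.3 TPM in ABA, and 50.6, 38.2 and 39.3 TPM in mannitol. ABA raised it there by 5.03 ± 0.12 (SE; adjusted p = 4.22e-14), while mannitol raised it by 1.61 ± 0.12 (SE; adjusted p = 4.1e-08), and the difference between the mannitol responses of the genotypes was -3.20 ± 0.17 (SE; adjusted p = 1.98e-09). The ABA responses differed by -0.078 (adjusted p = 0.728), which did not pass. SAG12, a protease gene of advanced leaf senescence, was listed at 0 in all mock libraries, at 1.06 to 2.94 TPM in WT ABA and 0.25 to 2.26 TPM in WT mannitol, and did not exceed 0.67 TPM in bon123.

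SWEET4, a clade II hexose carrier of vascular tissue, rose with SWEET15. It read 1.70, 2.20 and 2.41 TPM in WT mock, 52.5, 48.8 and 55.5 TPM in WT ABA, and 63.1, 61.1 and 69.5 TPM in WT mannitol. The bon123 libraries gave 0.10, 0.04 and 0.06 TPM in mock, 37.9, 39.3 and 42.5 TPM in ABA, and 3.45, 5.29 and 4.50 TPM in mannitol. The mock libraries of the mutant are near 0, its ABA libraries are somewhat below those of WT, and its mannitol libraries are far below. The rise was 4.11 ± 0.12 (SE; adjusted p = 3.02e-12) by ABA and 4.41 ± 0.12 (SE; adjusted p = 1.24e-12) by mannitol in WT, and 5.26 ± 0.12 (SE; adjusted p = 2.5e-14) and 2.33 ± 0.12 (SE; adjusted p = 1.98e-09) in bon123. Under ABA the mutant differed from WT by -0.38 (adjusted p = 0.00961), a call that median-of-ratios scaling turned to 0.038.

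SWEET13, a clade III carrier of sucrose and gibberellin, had its highest level in bon123 ABA. Its WT values were 7.86, 5.17 and 7.20 TPM in WT mock, 19.1, 31.9 and 22.5 TPM in WT ABA, and 28.1, 17.3 and 16.2 TPM in WT mannitol. Those of bon123 were 0.07, 0.04 and 0.15 TPM in mock, 169.8, 134 and 147 TPM in ABA, and 7.69, 6.32 and 6.31 TPM in mannitol. Mock libraries of bon123 fell under all WT libraries, and ABA libraries of bon123 lay above every other library. ABA raised the gene by 1.70 ± 0.20 (SE; adjusted p = 5.68e-06) in WT and by 7.12 ± 0.20 (SE; adjusted p = 2.59e-13) in bon123, and the difference between these rises was 5.41 ± 0.29 (SE; adjusted p = 1.72e-09). SWEET14, which acts with it in gibberellin transport, was low, with 0.26, 0.33 and 0.41 TPM in WT mock, 0.10, 0.35 and 0.14 TPM in WT ABA, and 5.83, 3.46 and 2.46 TPM in WT mannitol. Its bon123 libraries read 0, 0.07 and 0.03 TPM in mock, 1.71, 1.22 and 0.98 TPM in ABA, and 1.38, 3.42 and 1.21 TPM in mannitol. It was called higher after mannitol in WT, by 1.83 ± 0.25 (SE; adjusted p = 1.65e-05), and in bon123, by 1.47 (adjusted p = 0.00011). After ABA it was called higher in bon123, by 1.15 (adjusted p = 0.000664), against -0.16 (adjusted p = 0.636) in WT, and the difference between genotypes was 1.305 (adjusted p = 0.00563).

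SWEET11 and SWEET12, the sucrose carriers of phloem parenchyma that load the leaf phloem, had responses of opposite sign in the 2 genotypes. SWEET11 read 70.5, 82.6 and 76.1 TPM in WT mock, 95.2, 94.5 and 104 TPM in WT ABA, and 115, 83.4 and 121 TPM in WT mannitol. Values in the mutant were 118, 140.0 and 121 TPM in mock, 17.8, 18.1 and 22.6 TPM in ABA, and 35.01, 42.2 and 35.4 TPM in mannitol. The bon123 mock libraries are above the WT mock ones and the treated bon123 libraries below all treated WT ones. The change after ABA was 0.36 ± 0.13 (SE; adjusted p = 0.0381) in WT and -2.64 ± 0.13 (SE; adjusted p = 8.62e-11) in bon123, and after mannitol 0.46 ± 0.13 (SE; adjusted p = 0.00952) and -1.73 ± 0.13 (SE; adjusted p = 5.51e-08). Both WT calls were lost with median-of-ratios scaling, at changes of 0.43 (adjusted p = 0.0518) for ABA and 0.377 (adjusted p = 0.0832) for mannitol. The ABA call was also lost without WT mock library 1 or 3 or any of the WT ABA libraries (0.3 to 0.381), and the mannitol call without WT mannitol library 3 (0.361), while both falls in bon123 were kept with that scaling.

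SWEET12 read 5.23, 4.89 and 4.27 TPM in WT mock, 30.4, 30.1 and 27.9 TPM in WT ABA, and 54.4, 47.9 and 67.5 TPM in WT mannitol. In bon123 the values were 124, 125 and 150.1 TPM in mock, 85.6, 78.3 and 59.6 TPM in ABA, and 57.2, 55.8 and 46.55 TPM in mannitol. Mock libraries of bon123 are thus the highest of the 18, and those of WT the lowest. ABA raised SWEET12 by 2.40 ± 0.14 (SE; adjusted p = 2.51e-09) and mannitol by 3.30 ± 0.14 (SE; adjusted p = 8.95e-11) in WT. In bon123 it changed by -0.84 ± 0.14 (SE; adjusted p = 7.31e-05) after ABA and by -1.31 ± 0.14 (SE; adjusted p = 1.63e-06) after mannitol, and the ABA call was lost with either change of scaling. The genotypes differed in these responses by -3.24 (adjusted p = 8e-09) for ABA and -4.61 (adjusted p = 4.47e-10) for mannitol. The summed level of 5 phloem markers (SUC2, APL, SEOR1, CALS7, FTIP1) was 73.1 to 85.8, 128 to 152 and 141 to 203 TPM in WT mock, ABA and mannitol, and 119.7 to 135, 57.6 to 73.0 and 132 to 139 TPM in bon123. All 5 were detected in each group. SUC2 makes up 67.1% to 81.3% of the sum. In mock, SUC2, APL and FTIP1 were called higher and SEOR1 lower in bon123 than in WT. In mannitol FTIP1 was called higher and SEOR1 and CALS7 lower, so the markers did not move together in these 2 treatments. In ABA 3 of the 5 were called lower and 0 higher, where 47.5% of all genes were called lower. The difference between the responses was called lower in bon123 for all 5 with ABA and for 4 with mannitol, and higher for 0. Of all tested genes, 43.0% and 45.3% were called lower in this way. The part of the markers in these results was not tested.

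**Figure D2:**
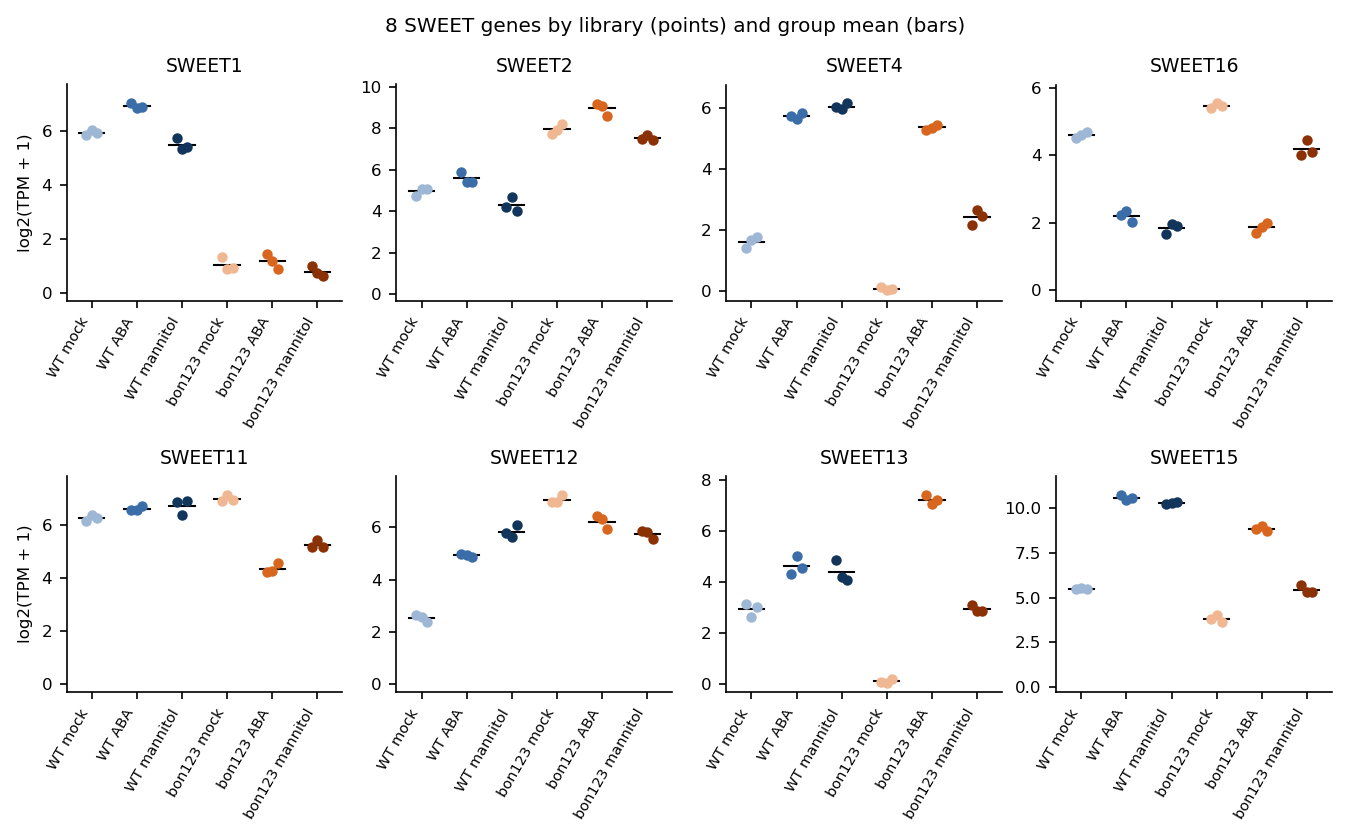
Levels of 8 SWEET genes as log2(TPM + 1) (vertical axis) by group (horizontal axis), with a point for each library and a bar at the group mean of 3. SWEET15 and SWEET4 are high in WT after both treatments but in bon123 mainly after ABA, SWEET12 is low in WT mock and highest in bon123 mock, and SWEET1 and SWEET2 differ between genotypes in every treatment.

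The clade IV genes SWEET16 and SWEET17 did not rise with the treatments. SWEET16, a carrier of glucose, fructose and sucrose at the vacuolar membrane, read 21.6, 23.2 and 24.7 TPM in WT mock, 3.74, 4.12 and 3.10 TPM in WT ABA, and 2.19, 2.89 and 2.74 TPM in WT mannitol. Its bon123 values were 40.9, 45.4 and 42.6 TPM in mock, 2.26, 2.68 and 3.01 TPM in ABA, and 14.9, 20.7 and 15.96 TPM in mannitol. Every treated library is below every mock library of its genotype. The change of SWEET16 was -2.38 ± 0.13 (SE; adjusted p = 8.75e-10) after ABA and -2.75 ± 0.13 (SE; adjusted p = 2.06e-10) after mannitol in WT, and -3.60 ± 0.13 (SE; adjusted p = 2.46e-12) and -1.29 ± 0.13 (SE; adjusted p = 6.86e-07) in bon123. SWEET17, the vacuolar fructose carrier, was among the highest genes of the set in mock and was called after neither treatment in WT, with 63.7, 70.4 and 60.1 TPM in WT mock, 65.8, 68.7 and 60.6 TPM in WT ABA, and 51.1, 65.4 and 60.5 TPM in WT mannitol. In bon123 it read 107, 105 and 97.5 TPM in mock, 48.5, 45.8 and 39.9 TPM in ABA, and 85.0, 99.3 and 104 TPM in mannitol, and its only call after treatment was a change of -1.19 ± 0.11 (SE; adjusted p = 6.61e-08) in bon123 ABA.

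SWEET1 and SWEET2, clade I members, had larger fold changes between genotypes than between treatments. SWEET1, a glucose carrier of the plasma membrane, read 56.4, 64.3 and 60.8 TPM in WT mock, 129.8, 115 and 118 TPM in WT ABA, and 52.2, 39.7 and 41.2 TPM in WT mannitol. The bon123 values were 1.48, 0.84 and 0.89 TPM in mock, 1.68, 1.23 and 0.85 TPM in ABA, and 0.97, 0.67 and 0.52 TPM in mannitol. No library of bon123 comes near those of WT. The difference of bon123 from WT was -4.90 ± 0.15 (SE; adjusted p = 1.51e-13) in mock, -5.77 ± 0.15 (SE; adjusted p = 1.37e-14) in ABA and -4.72 ± 0.15 (SE; adjusted p = 2.46e-13) in mannitol. ABA raised it in WT by 0.99 (adjusted p = 7.37e-05), and mannitol changed it by -0.45 (adjusted p = 0.0245). The mannitol call was lost without WT mock library 2 or 3 or WT mannitol library 2 or 3 (-0.442 to -0.374).

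SWEET2, a vacuolar glucose carrier known from roots, where it limits carbon loss to soil microbes, took the opposite course. It read 25.8, 33.3 and 32.4 TPM in WT mock, 59.7, 41.9 and 42.2 TPM in WT ABA, and 17.8, 24.6 and 15.4 TPM in WT mannitol. In the mutant it stood at 209, 243 and 297 TPM in mock, 588, 547 and 394 TPM in ABA, and 177, 202 and 173 TPM in mannitol. All bon123 libraries exceed all WT libraries, by 2.99 ± 0.20 (SE; adjusted p = 9.31e-10), 3.38 ± 0.20 (SE; adjusted p = 1.44e-10) and 3.22 ± 0.20 (SE; adjusted p = 4.29e-10) in mock, ABA and mannitol. It was higher after ABA in both genotypes, by 0.63 (adjusted p = 0.0141) in WT and 1.02 (adjusted p = 0.000211) in bon123. The WT call was lost without WT mock library 1 (0.514) or WT ABA library 1 (0.46). Mannitol lowered it in WT, with a change of -0.65 (adjusted p = 0.0106) that was lost without WT mannitol library 3 (-0.514). SWEET3 was near 0 in WT, with at most 0.17 TPM in any WT library. In bon123 it read 6.03, 5.96 and 6.90 TPM in mock, 1.45, 1.2 and 1.29 TPM in ABA, and 2.22, 2.41 and 1.54 TPM in mannitol. Its bon123 levels were called higher than WT in all 3 treatments, by 2.71, 1.12 and 1.53.

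Summed over the family, SWEET levels were 315 ± 18.5 TPM in WT mock (SD, n = 3 in each group), 2011 ± 159 in WT ABA and 1654 ± 52.5 in WT mannitol. In bon123 the sums were 678 ± 54.3, 1310.0 ± 153 and 448 ± 26.3 TPM. The 45 UMAMITs summed to 498 ± 31.8, 706 ± 27.0 and 777 ± 23.1 TPM in WT, and to 904 ± 55.5, 1517 ± 181 and 809 ± 46.4 TPM in bon123. Both families were thus higher in bon123 mock than in WT mock, and the SWEET sum of WT ABA exceeded that of bon123 ABA while the UMAMIT sum did not. The order within the set changed as well: SWEET11, SWEET17 and SWEET1 led in WT mock, SWEET15 and UMAMIT33 in both treated WT groups, SWEET2 and UMAMIT33 in bon123 mock, and SWEET2, SWEET15, UMAMIT33 and UMAMIT20 in bon123 ABA. Of neighbours in those orders, SWEET17 and SWEET1 overlapped in WT mock, as did SWEET2 and UMAMIT33 in bon123 mock and each neighbouring pair among the 4 leaders of bon123 ABA. In WT mannitol UMAMIT33 overlapped the next gene, SWEET11.

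Among the UMAMITs, UMAMIT33 rose most in WT. No transport role is known for it here. Its values were 9.78, 16.9 and 17.4 TPM in WT mock and 163, 136 and 159 TPM in WT ABA. In WT mannitol the mean was 114 ± 13.4 TPM (SD, n = 3), with 98.7 TPM in the lowest library. In bon123 they were 210.1, 223 and 282 TPM in mock, 442, 415 and 346 TPM in ABA, and 157, 174 and 145 TPM in mannitol. The mock libraries of bon123 already lie above all WT libraries. ABA raised it by 3.33 ± 0.18 (SE; adjusted p = 7.68e-10) and mannitol by 2.91 ± 0.18 (SE; adjusted p = 3.39e-09) in WT, and ABA by 0.75 ± 0.18 (SE; adjusted p = 0.00144) in bon123. After mannitol the bon123 value was -0.58 (adjusted p = 0.0113), a call lost with either change of scaling and without bon123 mock library 3 (-0.45). Mock seedlings of the genotypes differed by 3.96 ± 0.18 (SE; adjusted p = 1.15e-11). In the annotation, 6.7% of the 50-base stretches of its transcript are shared with AT4G28050, so a part of its reads may be split between both genes.

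UMAMIT20, which has the most ACGTG matches of the windows above, read 21.6, 27.0 and 18.9 TPM in WT mock, 92.1, 89.3 and 81.7 TPM in WT ABA, and 75.8, 69.0 and 82.0 TPM in WT mannitol. For bon123 the values were 40.9, 45.5 and 50.3 TPM in mock, 367, 349 and 312 TPM in ABA, and 21.7, 26.8 and 23.9 TPM in mannitol. The ABA libraries of bon123 are the highest of all, and the mannitol libraries are below those of bon123 mock. It rose by 1.93 ± 0.12 (SE; adjusted p = 5.56e-09) with ABA and by 1.72 ± 0.12 (SE; adjusted p = 1.91e-08) with mannitol in WT, rose by 2.88 ± 0.12 (SE; adjusted p = 1.41e-11) with ABA in bon123, and changed by -0.89 ± 0.12 (SE; adjusted p = 1.7e-05) with mannitol there. It was singled out after its values were seen, as were UMAMIT22, UMAMIT38, UMAMIT40, UMAMIT41 and UMAMIT45 below. Its neighbour UMAMIT17 on chromosome 4, the next gene of the family on the same strand, was not called after mannitol in WT, at 15.4, 11.4 and 15.4 TPM against 13.6, 17.2 and 11.3 TPM in mock (adjusted p = 0.963). In bon123 UMAMIT17 read 13.1, 13.4 and 18.6 TPM in mock, 10.06, 9.96 and 6.94 TPM in ABA, and 1.47, 1.39 and 0.95 TPM in mannitol, with a change of -2.81 ± 0.18 (SE; adjusted p = 1.08e-08) after mannitol.

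**Figure D3:**
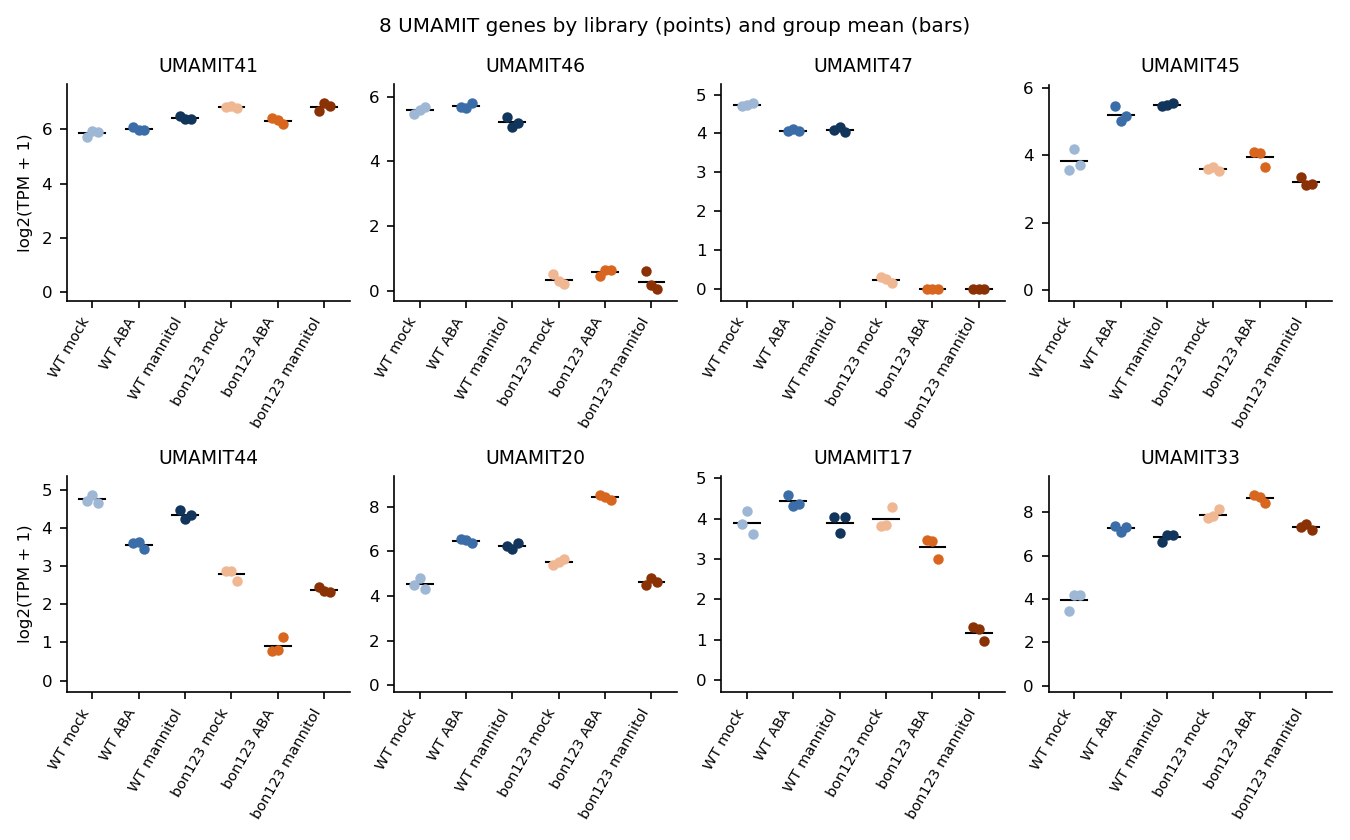
Levels of 8 UMAMIT genes as log2(TPM + 1) (vertical axis) by group (horizontal axis), with a point for each library and a bar at the group mean of 3. The first 5 panels are genes of the run on chromosome 3, of which UMAMIT46 and UMAMIT47 are near 0 in bon123 while UMAMIT41 is not; UMAMIT20 is highest in bon123 ABA, and UMAMIT17 is lowest in bon123 mannitol.

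UMAMITs with a published transport role were examined next. UMAMIT18, also called SIAR1, and UMAMIT14 export amino acids from the phloem of roots and, for UMAMIT18, in the silique. UMAMIT18 read 46.7, 44.2 and 38.5 TPM in WT mock, 58.0, 58.1 and 48.1 TPM in WT ABA, and 79.7, 72.0 and 74.5 TPM in WT mannitol. In bon123 libraries it stood at 47.9, 43.7 and 60.04 TPM in mock, 129, 117 and 102 TPM in ABA, and 87.0, 116 and 101 TPM in mannitol. It rose in all 4 treatment comparisons, by 0.34 ± 0.13 (SE; adjusted p = 0.0483) and 0.80 ± 0.13 (SE; adjusted p = 0.000132) with ABA and mannitol in WT and by 1.19 ± 0.13 (SE; adjusted p = 8.28e-07) and 0.99 ± 0.13 (SE; adjusted p = 1.28e-05) in bon123. The first of these calls was lost in 10 of the 18 fits that each leave out a library, with 0.259 as the lowest value, without WT mock library 3. UMAMIT14 read 2.76, 3.28 and 4.05 TPM in WT mock, 4.15, 8.01 and 3.66 TPM in WT ABA, and 7.0, 11.1 and 5.26 TPM in WT mannitol. In bon123 it read 0, 0.05 and 0.24 TPM in mock, 4.70, 3.71 and 2.29 TPM in ABA, and 1.45, 1.62 and 1.34 TPM in mannitol, so that its mock libraries are near 0. The difference of bon123 from WT was -1.99 ± 0.26 (SE; adjusted p = 4.65e-06) in mock, and it rose in bon123 by 2.03 (adjusted p = 4.21e-06) with ABA and 1.18 (adjusted p = 0.00119) with mannitol. In WT, UMAMIT14 was also called higher with mannitol, and was not called with ABA. The summed level of 7 root markers (CASP1, CASP2, COBL9, RHD6, SCR, SHR, PHO1) was 99.6 to 129, 40.6 to 54.0 and 68.4 to 109.9 TPM in WT mock, ABA and mannitol, and 108 to 144, 33.2 to 52.7 and 116 to 151 TPM in bon123. CASP1 makes up 61.6% to 63.5% of the sum in bon123 mannitol, and there CASP1 and CASP2 were called higher and SCR and PHO1 lower than in WT mannitol. In mock CASP2 was called higher and SCR lower in bon123, and in ABA RHD6 was higher and SCR and SHR lower. Their part in these values was not tested.

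UMAMIT11, UMAMIT28 and UMAMIT29 serve amino acid release into developing seeds. UMAMIT29 read 3.96, 5.87 and 3.18 TPM in WT mock, 11.8, 9.05 and 9.01 TPM in WT ABA, and 12.7, 8.09 and 14.4 TPM in WT mannitol. The bon123 libraries gave 29.9, 31.9 and 34.9 TPM in mock, 68.0, 76.3 and 58.2 TPM in ABA, and 27.3, 23.5 and 22.0 TPM in mannitol. All bon123 libraries lie above the WT libraries of the same treatment, by 2.67 ± 0.20 (SE; adjusted p = 4.66e-09), 2.64 ± 0.20 (SE; adjusted p = 3.86e-09) and 1.02 ± 0.20 (SE; adjusted p = 0.000227) in mock, ABA and mannitol. UMAMIT28 read 9.36, 9.05 and 5.25 TPM in WT mock, 10.8, 16.5 and 10.5 TPM in WT ABA, and 15.1, 12.0 and 15.6 TPM in WT mannitol. Values in the mutant were 18.3, 18.1 and 19.7 TPM in mock, 31.3, 27.9 and 30.1 TPM in ABA, and 20.2, 22.5 and 24.5 TPM in mannitol. It was called higher in bon123 than in WT in each treatment, by 1.18, 1.204 and 0.63. Its rise after ABA in WT, 0.62 (adjusted p = 0.0109), went to 0.387 without WT mock library 3 and to 0.426 without WT ABA library 2, and lost its call in both. UMAMIT11 stood at 27.98, 29.4 and 24.6 TPM in WT mock, 30.7, 42.1 and 33.0 TPM in WT ABA, and 44.0, 38.0 and 37.4 TPM in WT mannitol. Libraries of bon123 gave 38.2, 40.6 and 54.4 TPM in mock, 60.2, 40.8 and 35.03 TPM in ABA, and 54.9, 50.9 and 53.5 TPM in mannitol. Its called differences were 0.53 (adjusted p = 0.0196) for mannitol in WT and 0.67 (adjusted p = 0.00273) and 0.41 (adjusted p = 0.045) for bon123 against WT in mock and mannitol. The first was lost without WT mock library 3 (0.456) or WT mannitol library 1 (0.455), and the last without any 1 of 10 libraries (0.368 to 0.439). Both seed storage markers (CRA1, OLEO1) together reached 1.78 TPM at most in WT. In bon123 they summed to 0.93 to 35.8 TPM in mock (median 5.18), 14.9 to 85.5 TPM in ABA and 2.31 to 6.54 TPM in mannitol. Their part in these differences was not tested.

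UMAMIT25 had the largest genotype difference of the set. It is known from seeds, where it takes part in amino acid export. It read 0.10, 0.31 and 0.37 TPM in WT mock, 2.66, 1.29 and 1.08 TPM in WT ABA, and 0.20, 0.78 and 0.02 TPM in WT mannitol. Its bon123 values were 81.7, 96.3 and 82.2 TPM in mock, 215, 289 and 176 TPM in ABA, and 105, 97.0 and 62.4 TPM in mannitol. The lowest bon123 library is at 62.4 TPM and the highest WT library at 2.66 TPM. The difference was 6.12 ± 0.25 (SE; adjusted p = 4.01e-12) in mock, 6.43 ± 0.25 (SE; adjusted p = 1.37e-12) in ABA and 6.07 ± 0.25 (SE; adjusted p = 4.6e-12) in mannitol, and neither interaction was called. UMAMIT36, also called RTP1, which lowers resistance to Phytophthora, went the other way. It read 7.67, 8.33 and 8.62 TPM in WT mock, 1.34, 1.45 and 1.45 TPM in WT ABA, and 5.29, 5.21 and 4.22 TPM in WT mannitol. In bon123 they were 1.41, 1.38 and 1.01 TPM in mock, 0.32, 0.11 and 0.05 TPM in ABA, and 1.27, 1.59 and 1.68 TPM in mannitol. It fell in WT, with changes of -1.93 ± 0.12 (SE; adjusted p = 4.22e-09) for ABA and -0.64 ± 0.12 (SE; adjusted p = 0.000345) for mannitol. It was lower in bon123 than in WT, with differences of -2.03, -1.06 and -1.23 in mock, ABA and mannitol. WAT1 itself (AT1G75500), a vacuolar auxin exporter of developing xylem, is not matched by the rule of the set. It read 100.2, 103 and 96.2 TPM in WT mock, 25.7, 28.4 and 21.9 TPM in WT ABA, and 70.0, 54.9 and 67.8 TPM in WT mannitol. Levels in bon123 were 50.4, 48.0 and 49.3 TPM in mock, 0.47, 0.35 and 0.53 TPM in ABA, and 106, 122.6 and 101 TPM in mannitol, so that it fell with ABA in both genotypes, with changes of -1.95 (adjusted p = 1.38e-09) and -5.12 (adjusted p = 1.7e-14). The summed level of 4 xylem markers (IRX3, XCP1, XCP2, VND7) was 44.3 to 61.2 TPM in WT mock, 64.5 to 91.8 in WT ABA and 126 to 153 in WT mannitol. In bon123 it was 28.6 to 45.8, 8.40 to 11.5 and 60.5 to 103 TPM, and its part in the level of WAT1 was not tested.

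Several genes of the set are neighbours in the genome, and some neighbours differed in level. Others shared a direction, as UMAMIT29 and UMAMIT30 on chromosome 4 and UMAMIT37 and UMAMIT40 on chromosome 5 were called higher in bon123 in each treatment. UMAMIT31 and UMAMIT42, which lie in the same runs, were not. The longest run holds UMAMIT41, UMAMIT43-psi, UMAMIT46, UMAMIT47, UMAMIT45 and UMAMIT44, in this order on the plus strand of chromosome 3 between 10442608 and 10468958 (TAIR10.1). UMAMIT46 read 43.3, 47.4 and 50.8 TPM in WT mock, 50.1, 49.6 and 54.6 TPM in WT ABA, and 40.1, 32.6 and 35.4 TPM in WT mannitol. The mutant bon123 gave 0.45, 0.24 and 0.15 TPM in mock, 0.37, 0.57 and 0.55 TPM in ABA, and 0.53, 0.14 and 0.04 TPM in mannitol. UMAMIT47, beside it, read 25.2, 25.4 and 26.5 TPM in WT mock, 15.6, 16.4 and 15.6 TPM in WT ABA, and 15.9, 16.9 and 15.5 TPM in WT mannitol, but 0.24, 0.20 and 0.11 TPM in bon123 mock, and was listed at 0 in all 6 treated bon123 libraries. Both are near or at 0 in every bon123 library. The difference from WT in mock was -5.24 ± 0.14 (SE; adjusted p = 2.65e-14) for UMAMIT46 and -4.50 ± 0.08 (SE; adjusted p = 1.98e-15) for UMAMIT47.

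At the left end of the run, UMAMIT41 stood at 51.5 to 67.1 TPM in the WT mock and ABA libraries and was called higher in bon123, by 0.97, 0.30 and 0.42 in mock, ABA and mannitol. At the right end, UMAMIT44 read 25.1, 28.2 and 24.2 TPM in WT mock, 11.2, 11.4 and 9.83 TPM in WT ABA, and 21.1, 17.7 and 19.1 TPM in WT mannitol. In bon123 it stood at 6.31, 6.30 and 5.13 TPM in mock, 0.71, 0.74 and 1.22 TPM in ABA, and 4.49, 4.08 and 3.99 TPM in mannitol. It was lower in bon123, with differences of -1.96, -2.65 and -1.97, and ABA lowered it in WT and bon123, with changes of -1.19 (adjusted p = 8.92e-07) and -1.88 (adjusted p = 1.07e-09). UMAMIT45 read 10.9, 17.2 and 12.0 TPM in WT mock, rose in WT by 1.38 (adjusted p = 3.26e-06) with ABA and 1.67 (adjusted p = 3.48e-07) with mannitol, and differed between mock groups by -0.23 (adjusted p = 0.194). UMAMIT45 and UMAMIT46 share up to 1.6% of their 50-base stretches.

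UMAMIT12 and UMAMIT13 are neighbours on the minus strand of chromosome 2, and both fell in WT. UMAMIT12 read 26.6, 26.0 and 22.8 TPM in WT mock, 6.77, 6.08 and 4.49 TPM in WT ABA, and 13.7, 10.0 and 14.3 TPM in WT mannitol. Its bon123 libraries read 7.60, 8.07 and 7.05 TPM in mock, 5.92, 4.57 and 5.41 TPM in ABA, and 6.05, 4.69 and 5.02 TPM in mannitol. Its change in WT was -1.96 ± 0.15 (SE; adjusted p = 4.09e-08) with ABA and -0.95 ± 0.15 (SE; adjusted p = 7.07e-05) with mannitol, and it was lower in bon123 mock than in WT mock, with a difference of -1.61 (adjusted p = 7.39e-08). The called falls in bon123 reversed or were lost with other scalings, and were lost without bon123 ABA library 2 (-0.363) for ABA and without bon123 mock library 2 (-0.418) or mannitol library 2 (-0.394) for mannitol. UMAMIT13 read 26.9, 25.1 and 21.1 TPM in WT mock, 13.7, 15.6 and 13.1 TPM in WT ABA, and 12.5, 7.45 and 11.7 TPM in WT mannitol. The bon123 values were 15.2, 15.6 and 14.5 TPM in mock, 2.27, 1.59 and 2.31 TPM in ABA, and 2.49, 2.86 and 2.14 TPM in mannitol. It fell in all 4 treatment comparisons, with changes of -0.74 (adjusted p = 0.00122) and -1.16 (adjusted p = 2.06e-05) in WT and -2.40 (adjusted p = 1.87e-09) and -2.21 (adjusted p = 2.96e-08) in bon123. UMAMIT4 read 5.86, 10.2 and 10.2 TPM in WT mock, 1.90, 2.36 and 0.81 TPM in WT ABA, and 2.12, 4.40 and 0.93 TPM in WT mannitol, and 2.20, 2.40 and 2.62 TPM in bon123 mock, 3.77, 2.53 and 2.50 TPM in bon123 mannitol and was listed at 0 in all 3 bon123 ABA libraries. It was lower in treated WT, with changes of -1.87 (adjusted p = 0.000114) for ABA and -1.57 (adjusted p = 0.000471) for mannitol.

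UMAMIT10 and UMAMIT19 were low in mock and were called higher after both treatments in both genotypes. UMAMIT10 read 3.49, 1.74 and 1.84 TPM in WT mock, 5.36, 4.09 and 3.16 TPM in WT ABA, and 4.87, 3.30 and 3.56 TPM in WT mannitol. Libraries of bon123 gave 2.44, 2.34 and 2.42 TPM in mock, 34.6, 31.3 and 24.1 TPM in ABA, and 9.04, 9.38 and 9.52 TPM in mannitol. The ABA libraries of bon123 lie above every other library. Its rise with ABA was 0.65 ± 0.20 (SE; adjusted p = 0.0116) in WT and 3.17 ± 0.20 (SE; adjusted p = 6.89e-10) in bon123, a difference of 2.53 ± 0.28 (SE; adjusted p = 2.16e-06). The WT call was lost without WT mock library 2 or 3 or WT ABA library 1 (0.493 to 0.547), and the WT call for mannitol without WT mock library 2 or 3 or WT mannitol library 1 (0.438 to 0.472). UMAMIT19 read 1.09, 0.87 and 1.03 TPM in WT mock, 1.71, 2.58 and 1.40 TPM in WT ABA, and 4.06, 3.69 and 4.35 TPM in WT mannitol. In bon123 they were 0.12, 0.35 and 0.29 TPM in mock, 4.41, 2.46 and 2.60 TPM in ABA, and 5.99, 7.29 and 4.10 TPM in mannitol. It rose with mannitol by 1.33 ± 0.20 (SE; adjusted p = 3.8e-05) in WT and 2.41 ± 0.20 (SE; adjusted p = 9.02e-08) in bon123, and with ABA by 0.52 (adjusted p = 0.04) and 1.70 (adjusted p = 1.14e-06). The ABA call in WT was lost without any 1 of the WT mock libraries or WT ABA library 1 or 2 (0.355 to 0.555).

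The other 16 tested UMAMITs, for which no role is given here, had group means (n = 3) between 0 and 97.7 TPM, and those named from among them were singled out after their values were seen. UMAMIT40 stood at 15.3 ± 2.23 TPM in WT mock (SD) and 97.7 ± 2.88 TPM in bon123 mock, and its bon123 mean exceeded that of WT in each treatment. UMAMIT30 read 21.2 ± 2.59 TPM in WT mock and was highest in bon123 ABA, at 42.6 ± 9.29 TPM. UMAMIT38 was highest in WT mannitol, at 57.0 ± 5.73 TPM, and lowest in bon123 mannitol, at 4.75 ± 0.87 TPM. UMAMIT22 read 5.80 ± 0.47 TPM in WT ABA and 0.05 ± 0.04 TPM in bon123 ABA. UMAMIT32 stood at 1.40 ± 0.70 TPM in WT mock and was listed at 0 in all mock and mannitol libraries of bon123. UMAMIT2 and UMAMIT31 had group means between 7.69 and 20.1 TPM, and UMAMIT1, 3, 6, 8, 21, 27, 34, 37 and 42 between 0.05 and 12.2 TPM.

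Of the matches outside both families, AT3G02690 was lower in bon123 than in WT in each treatment. It read 58.1, 60.3 and 54.0 TPM in WT mock, 40.4, 44.6 and 47.6 TPM in WT ABA, and 41.7, 37.5 and 43.8 TPM in WT mannitol. Levels in bon123 were 11.9, 11.3 and 11.7 TPM in mock, 4.06, 3.80 and 3.73 TPM in ABA, and 5.81, 7.77 and 5.63 TPM in mannitol. The change from WT was -2.21 (adjusted p = 2.17e-11) in mock, -3.21 (adjusted p = 1.43e-13) in ABA and -2.51 (adjusted p = 4.73e-12) in mannitol, beside the leaf and photosynthesis markers given above. SWEETIE read 8.45, 9.76 and 10.2 TPM in WT mock, 9.27, 7.76 and 8.11 TPM in WT ABA, and 11.5, 10.51 and 10.3 TPM in WT mannitol. The mutant bon123 gave 8.28, 7.62 and 10.3 TPM in mock, 7.39, 5.20 and 2.54 TPM in ABA, and 1.98, 1.83 and 1.66 TPM in mannitol. Its change in bon123 was -1.78 ± 0.22 (SE; adjusted p = 4.75e-06) with mannitol. For ABA it was -0.77 (adjusted p = 0.00508), which went to -0.422 without library 3 of bon123 ABA and lost its call with either change of scaling.

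Counted over the 49 tested genes, ABA in WT raised 19 and lowered 14, where 49.5% of all 21727 genes were called, 18.9% higher and 30.6% lower. The median log2 fold change was 0.11 in the set and -0.11 over all genes. SWEETs contributed 7 rises and 1 fall of 11, and UMAMITs 12 and 12 of 36. Mannitol in WT raised 25 and lowered 11, where 50.5% of all genes were called, 25.5% higher and 25.0% lower, with a median of 0.43 against 0.02 over all genes. Of these, SWEETs gave 6 rises and 3 falls, and UMAMITs 19 rises and 7 falls. Most members are called in nearly every comparison, but so are near or above 50% of all genes in most of them, and members that passed the filter through a group where they are high had to differ. These counts are therefore a description.

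In bon123, ABA raised 17 genes of the set and lowered 25, where 70.6% of all genes were called, 15.1% higher and 55.5% lower. The median was -0.36 in the set and -0.51 over all genes. Here scaling matters: with median-of-ratios factors, which bring the median of all genes from -0.51 to -0.03, the split was 22 higher and 18 lower. Mannitol in bon123 raised 9 and lowered 18, where 61.5% of all genes were called, 12.6% higher and 48.8% lower, with medians of -0.22 and -0.36, and median-of-ratios factors gave 18 and 13. By family, SWEETs gave 5 rises and 5 falls with ABA and 4 and 4 with mannitol, and UMAMITs gave 12 and 18 with ABA and 5 and 12 with mannitol.

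**Figure D4:**
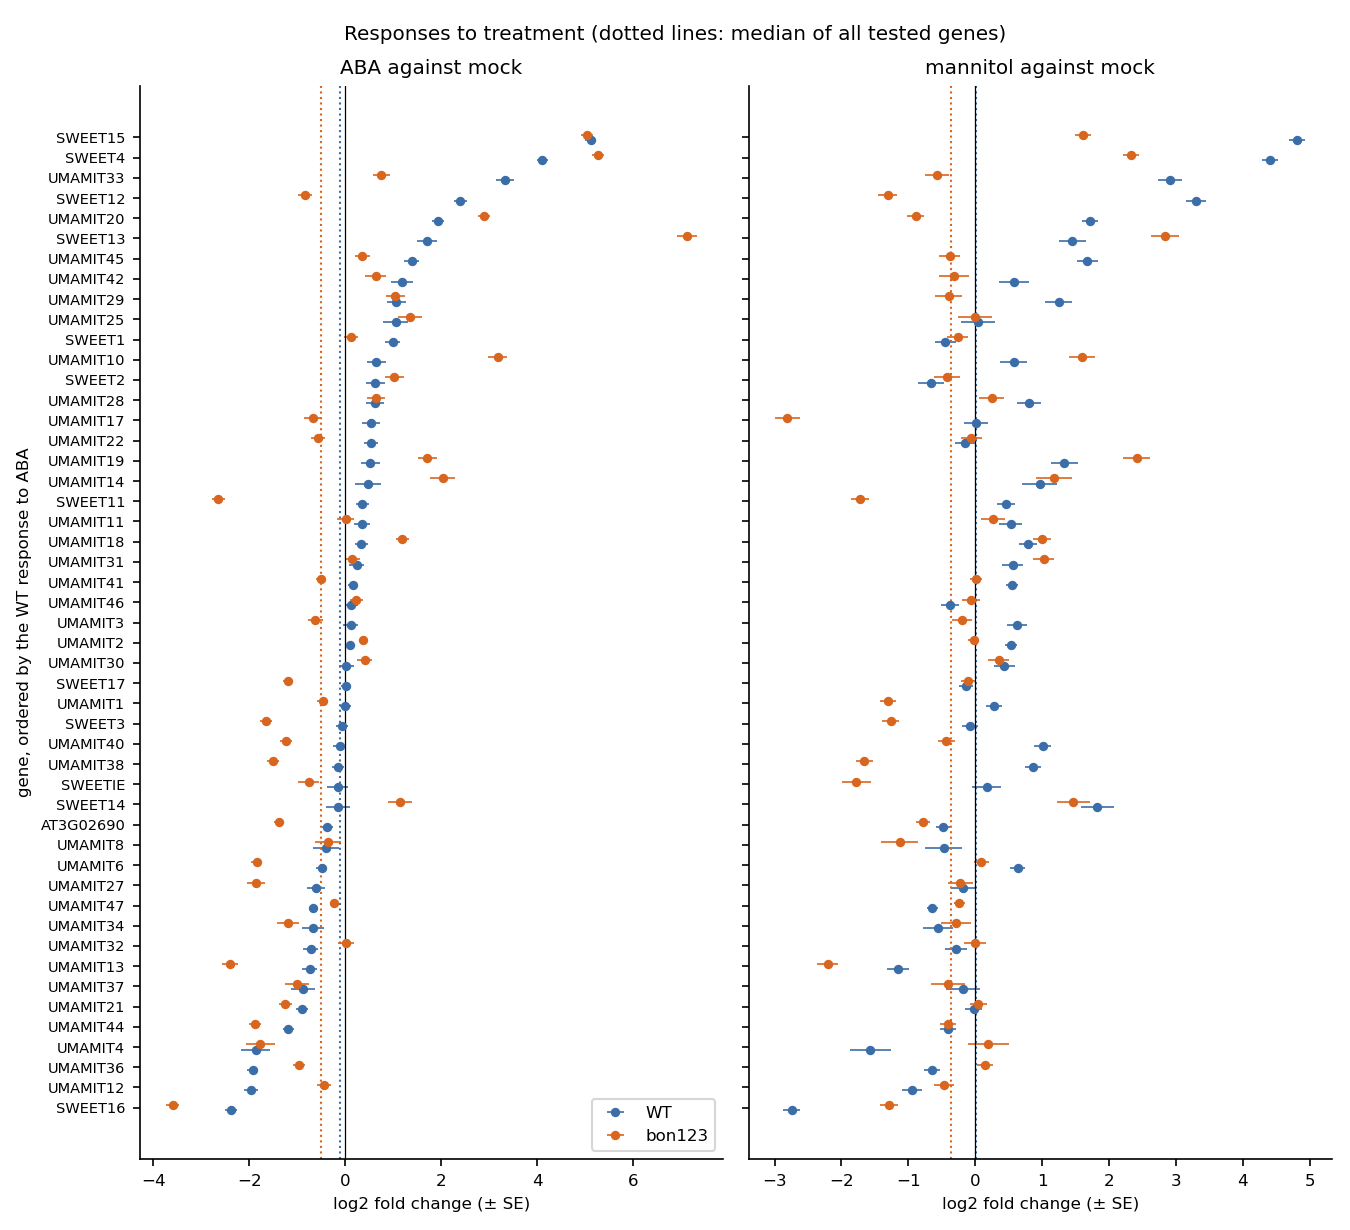
Log2 fold change with its standard error (horizontal axis) of the 49 tested genes (vertical axis, ordered by the WT response to ABA) after ABA (left) and mannitol (right), in WT (blue) and bon123 (orange). Dotted lines mark the median of all 21727 tested genes, which is -0.11 and -0.51 for ABA and 0.02 and -0.36 for mannitol. SWEET15 and SWEET4 have the blue points furthest right in both panels, and SWEET13 has the orange point furthest right. SWEET11 and SWEET12 have blue points right of 0 and orange points left of 0.

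Set side by side, 13 genes were called higher by ABA in both genotypes, which is 13 of the 19 called higher in WT and 13 of the 17 in bon123, where 9.78% of all tested genes were called so. They are SWEET2, SWEET4, SWEET13, SWEET15 and 9 UMAMITs. Another 13 were called lower in both, of 14 in WT and 25 in bon123, where 25.5% of all genes were. Of these, UMAMIT12 reversed in bon123 with both other scalings, and UMAMIT47 is listed at 0 in bon123 ABA. SWEET11, SWEET12, UMAMIT17 and UMAMIT22 were called higher in WT and lower in bon123, where 3.69% of all genes were, and none was called the other way, where 0.640% were. The WT call of UMAMIT17 was lost without WT mock library 1 or 3 or WT ABA library 1 (0.402 to 0.528). Of these 4, SWEET11 kept its fall in bon123 with both other scalings, and SWEET12 and UMAMIT17 lost it with both. UMAMIT22 lost it with the length trend removed, and its WT call with a pseudocount of 0.1. The bon123 libraries of UMAMIT22 did not exceed 0.88 TPM in mock and 0.08 TPM in ABA. After mannitol, 9 genes were called higher in both genotypes and 6 lower in both, where 4.13% and 11.2% of all genes were. Of the 6, the bon123 falls of UMAMIT12 and UMAMIT44 were lost or reversed with median-of-ratios scaling (-0.016 and 0.016), and that of UMAMIT47, listed at 0 in bon123 mannitol, reversed with the length trend removed (0.2). SWEET11, SWEET12, UMAMIT20, UMAMIT33, UMAMIT38, UMAMIT40 and UMAMIT45 were called higher in WT and lower in bon123, where 12.4% of all genes were. UMAMIT33, UMAMIT40 and UMAMIT45 lost that fall, or reversed, with median-of-ratios scaling, and the fall of UMAMIT45 was lost in 11 of the 18 fits that each leave out a library (-0.409 to -0.332).

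The difference between the responses was tested as an interaction. For ABA it was called for 32 of the 49, 12 with a higher and 20 with a lower response in bon123, where 52.6% of all genes were called, 9.51% higher and 43.0% lower. With median-of-ratios factors the split was 17 and 15. For mannitol 27 were called, 7 higher and 20 lower, where 62.3% of all genes were called, 17.0% higher and 45.3% lower, and median-of-ratios factors gave 15 and 14. The largest were SWEET13 for ABA and SWEET12 for mannitol, with the values given above.

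Direct comparison of ABA with mannitol in WT called 7 genes higher and 15 lower in ABA, where 30.1% of all genes were called, 11.0% higher and 19.1% lower. Median-of-ratios factors gave 11 and 12. SWEET1 and SWEET2 were higher in ABA, by 1.43 ± 0.15 (SE; adjusted p = 4.72e-06) and 1.28 ± 0.20 (SE; adjusted p = 0.000128), and SWEET14, UMAMIT36, UMAMIT12 and SWEET12 were lower, with differences of -1.99, -1.29, -1.01 and -0.91. SWEET15 and SWEET4 differed by 0.29 (adjusted p = 0.0842) and -0.30 (adjusted p = 0.0744), which did not pass. In bon123 the same comparison called 19 higher and 19 lower, where 70.5% of all genes were called, 31.1% higher and 39.4% lower, and median-of-ratios factors gave 23 and 18. There SWEET13, UMAMIT20, SWEET15 and SWEET4 were higher in ABA, by 4.28 ± 0.20 (SE; adjusted p = 4.53e-11), 3.77 ± 0.12 (SE; adjusted p = 1.46e-12), 3.42 ± 0.12 (SE; adjusted p = 2.79e-12) and 2.93 ± 0.12 (SE; adjusted p = 1.05e-11).

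Between genotypes in mock, 20 genes of the set were higher and 20 lower in bon123, where 73.8% of all genes were called, 40.1% higher and 33.7% lower. The medians were 0.09 in the set and 0.13 over all genes. In ABA 20 were higher and 23 lower, where 76.4% of all genes were called, 28.9% higher and 47.5% lower, with medians of -0.35 and -0.31. In mannitol 17 were higher and 26 lower, where 74.6% of all genes were called, 25.4% higher and 49.3% lower, with medians of -0.55 and -0.36. The shares called in the set were 81.6%, 87.8% and 87.8%. Here too scaling matters. Median-of-ratios factors gave 20 higher and 21 lower in mock, 22 and 18 in ABA, and 21 and 23 in mannitol. With the length trend removed the splits were 20 and 21, 22 and 17, and 20 and 23. The excess of lower genes in ABA was thus not kept.

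These 3 comparisons use separate libraries. In all of them 11 genes were called higher in bon123: SWEET2, SWEET3, UMAMIT2, 25, 28, 29, 30, 33, 37, 40 and 41, where 14.3% of all tested genes were called higher in all 3. Another 14 were called lower in all: SWEET1, SWEET4, SWEET15, AT3G02690, UMAMIT13, 21, 22, 27, 32, 36, 38, 44, 46 and 47, where 24.7% of all genes were. Leaving out 1 library, UMAMIT2 lost its mannitol call in 12 of 18 fits (0.137 to 0.203), UMAMIT33 without WT mannitol library 1 or bon123 mannitol library 1 or 2 (0.375 to 0.479) and UMAMIT37 without WT mannitol library 3 (0.585). Of those lower, SWEET4 reversed in ABA with median-of-ratios scaling, and UMAMIT32 in ABA and UMAMIT21 in mannitol lost their calls with other scalings, UMAMIT32 also without WT ABA library 2 (-0.424). UMAMIT34 was the only gene of the 49 called in none of the 3, as were 4.47% of all genes. The 25 genes with the same call in each treatment include SWEET15, the highest of the set in both treated WT groups, and SWEET2, which has the highest mean in each bon123 group but overlaps the next gene there.

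**Figure D5:**
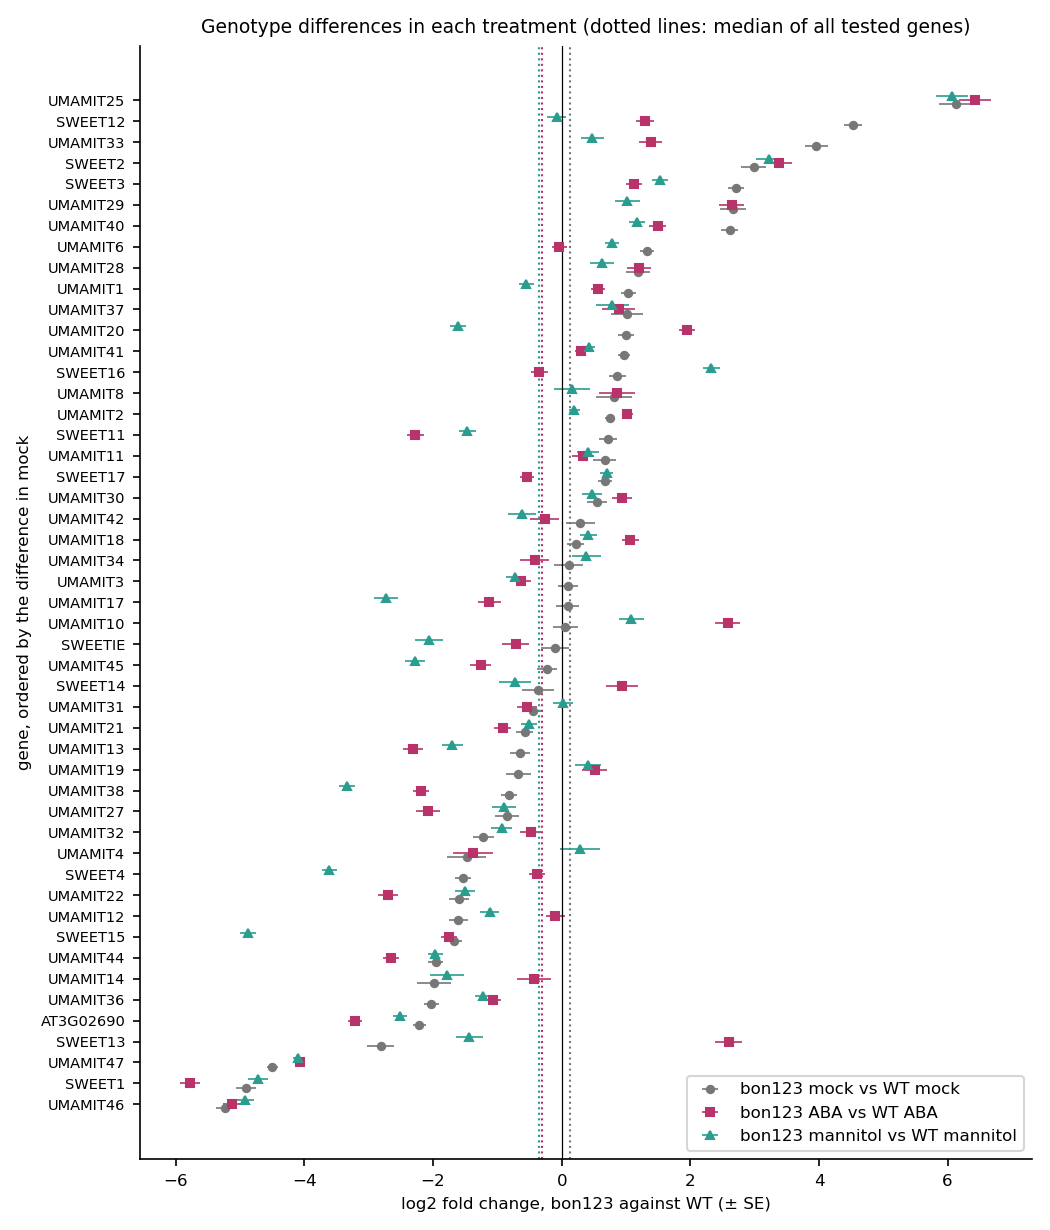
Log2 fold change of bon123 against WT with its standard error (horizontal axis) for the 49 tested genes (vertical axis, ordered by the difference in mock), in mock (grey circles), ABA (magenta squares) and mannitol (green triangles). Dotted lines mark the medians of all tested genes, 0.13, -0.31 and -0.36; UMAMIT46, SWEET1 and UMAMIT47 lie at the left and UMAMIT25 at the right in each treatment.

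Carriers that take sugar and amino acids into cells, and invertases, which split sucrose, were read from lists of other genes. The share of all tested genes called higher and lower was 18.9% and 30.6% with ABA and 25.5% and 25.0% with mannitol in WT, 15.1% and 55.5% with ABA and 12.6% and 48.8% with mannitol in bon123, and 40.1% and 33.7% between genotypes in mock. Of 15 tested sugar importers, vacuolar sugar carriers and invertases, 6 were higher and 6 lower with ABA in WT, 7 and 5 with mannitol in WT, 3 and 7 with ABA in bon123, and 2 and 10 with mannitol in bon123. Their summed level was 504 to 643 TPM in WT mock and 2848 to 3156 TPM in bon123 mock, where 10 were higher and 3 lower than in WT. The 4 invertases (CWINV1, CWINV4, BFRUCT3, VI2) alone summed to 231 to 319 TPM in WT mock and 1823 to 2011 TPM in bon123 mock, and the importers and vacuolar carriers to 273 to 323 and 1026 to 1146 TPM. Of the invertases, BFRUCT3 read 98.55 to 166.1 TPM in WT mock and 1327 to 1438 TPM in bon123 mock, and CWINV1 35.6 to 48.7 and 419 to 479 TPM. VI2 read 96.55 to 108.2 TPM in WT mock but 76.2 to 92.95 TPM in bon123 mock, and CWINV4 did not exceed 0.13 TPM in either. STP13, a hexose importer of stress and infection, is given as an example from this list, picked by no set rule. It read 9.13, 9.13 and 11.0 TPM in WT mock, 30.3, 20.0 and 19.1 TPM in WT ABA, and 53.4, 68.0 and 51.6 TPM in WT mannitol. In bon123 it stood at 85.4, 81.2 and 85.3 TPM in mock, 226, 228 and 161 TPM in ABA, and 89.5, 101 and 86.9 TPM in mannitol. Of 20 tested amino acid importers, 4 were higher and 9 lower with ABA in WT, 11 and 3 with mannitol in WT, 4 and 11 with ABA in bon123, and 5 and 7 with mannitol in bon123. Between genotypes in mock, 9 of the 20 were higher and 4 lower in bon123. AAP1, an importer of neutral amino acids, was also picked by no set rule. It rose with ABA in both genotypes, by 2.58 (adjusted p = 5.74e-10) and 2.24 (adjusted p = 5.51e-10), and with mannitol in WT by 2.58 (adjusted p = 5.9e-10), against 0.43 (adjusted p = 0.0123) in bon123. All 5 GLUTAMINE DUMPER genes, small membrane proteins whose overexpression promotes amino acid release, passed the filter. With ABA and mannitol in WT, 2 and 1 fell and the others were not called. In bon123, 1 rose and 3 fell with ABA, 3 rose with mannitol and the other 2 were not called, and 2 were higher and 1 lower than WT in mock. Summed GLUTAMINE DUMPER levels were 54.8 to 71.1 TPM in WT mannitol and 147 to 209 TPM in bon123 mannitol.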

How the data were processed

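RNA of 18 libraries in 6 groups of 3 was read from a table of 33082 genes that the authors deposited, 1 column a library. The header names no unit. The deposited values are TPM as judged from their totals (999989 to 999999), and 5905 genes are at 0 throughout. One line of the table was not used here. Tools named in the submitters' processing notes, without roles, are DESeq2 1.24.0, RSEM 1.3.1 and HISAT2 2.1.0, with the build TAIR10. TPM keeps no depth, so it is unknown, no counting interval can be given, and the sources used here do not give strandedness, so overlapping genes cannot be told apart.

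From these values, log2(TPM + 1) was fitted with limma 3.58.1 in R 4.3.3 (trend option, 6 group means, all libraries together) for the 21727 genes that reached 1 TPM in 3 or more libraries. The 11 comparisons were adjusted by Benjamini-Hochberg over all tested genes. The code was tested on simulated data. Alternatives were a pseudocount of 0.1, no filter, median-of-ratios factors, removal of a lowess trend on gene length, the replicate number as a block, a fit of only the groups compared, and leaving out each library.

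Groups came from the sample titles. The genes, gene lists and marker lists were chosen with earlier results of these data known. Values are given for all SWEETs and for UMAMITs with a published role past the filter, and for the 4 largest called rises and falls of each treatment and genotype comparison; genes named otherwise are said to be. All 66 genes matched a RefSeq locus of TAIR10.1, from which positions, 250-base windows and shared 50-base stretches were taken; AT1G09997 shares 100% of its stretches with AT1G80960, and UMAMIT26 and UMAMIT27 share 6.3% to 9.1%. Marker lists were root, leaf and photosynthesis, phloem, xylem, senescence and seed storage.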

Additional observations from a re-analysis of the deposited data

Results flagged for a closer look

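These results are listed because the response to a treatment differed between the genotypes by at least 2 on the log2 scale, with the difference itself tested as an interaction in limma (3 libraries a group, p adjusted over all tested genes). With 3 libraries a group no test for a single outlying library was made.

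Taking the WT response to ABA from that of bon123 gave 5.41 ± 0.29 (SE; adjusted p = 1.72e-09) for SWEET13 and 2.53 ± 0.28 (SE; adjusted p = 2.16e-06) for UMAMIT10, both higher in bon123. The result was -3.24 ± 0.20 (SE; adjusted p = 8e-09) for SWEET12, -3.0 ± 0.19 (SE; adjusted p = 8.9e-09) for SWEET11 and -2.58 ± 0.25 (SE; adjusted p = 7.41e-07) for UMAMIT33, all lower in bon123. SWEET12 and UMAMIT33 start from mock levels of 133 ± 14.7 and 238 ± 38.0 TPM in bon123 (SD, n = 3), against 4.80 ± 0.49 and 14.7 ± 4.25 TPM in WT.

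For mannitol, all differences of that size were lower in bon123. They were -4.61 ± 0.20 (SE; adjusted p = 4.47e-10) for SWEET12, -3.49 ± 0.25 (SE; adjusted p = 3.29e-08) for UMAMIT33, -3.2 ± 0.17 (SE; adjusted p = 1.98e-09) for SWEET15 and -2.82 ± 0.26 (SE; adjusted p = 3.1e-07) for UMAMIT17. Those of UMAMIT20, UMAMIT38 and UMAMIT45 were -2.61 (adjusted p = 1.6e-08), -2.52 (adjusted p = 2.24e-08) and -2.05 (adjusted p = 1.59e-06). SWEET11 and SWEET4 followed with -2.19 ± 0.19 (SE; adjusted p = 1.82e-07) and -2.08 ± 0.17 (SE; adjusted p = 1.13e-07). With a pseudocount of 0.1 the value of SWEET4 went to -0.134 (adjusted p = 0.653), where its bon123 mock libraries are at 0.04 to 0.10 TPM. The median of all tested genes for this difference was -0.42, and median-of-ratios scaling moved it to 0.054. The bon123 mannitol libraries also carry 5.9% to 10.08% of their total in 6 ribosomal RNA loci, against 0.48% to 2.21% in all others but WT mock library 1 with 6.1%, and the part of this in the differences was not tested.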

How the results depend on the processing

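No count of called genes of the set, both directions together, moved by more than 1.5 times under any of 24 other settings. Counts in 1 direction did: with median-of-ratios factors and, given next, after removal of the length trend, the genes called higher went from 9 to 18 and 17 for mannitol in bon123, from 7 to 15 and 13 for the interaction with mannitol and from 7 to 11 and 12 for ABA against mannitol in WT (4 with a pseudocount of 0.1), and with the length trend removed those called lower by ABA in bon123 went from 25 to 15. Leaving out 1 library at a time, the count ranged from 26 to 34 (33 as reported) for ABA and 30 to 38 (36) for mannitol in WT, 40 to 43 (42) and 24 to 29 (27) in bon123, 38 to 40 (40), 41 to 44 (43) and 39 to 44 (43) for bon123 against WT in mock, ABA and mannitol, 17 to 26 (22) and 34 to 39 (38) for ABA against mannitol in WT and bon123, and 31 to 35 (32) and 26 to 29 (27) for the interactions with ABA and mannitol. Of 383 called values of the 49 tested genes, 296 kept direction and call in every setting. Some reversed, and the cause was not tested. With the length trend removed these were SWEET16 for bon123 ABA against WT ABA (0.024), SWEET3 for bon123 ABA against bon123 mannitol (0.049), UMAMIT1 for bon123 mannitol against WT mannitol (0.161) and UMAMIT47 for ABA and mannitol in bon123 (0.346 and 0.2), a gene listed at 0 there. With median-of-ratios scaling they were SWEET4 for bon123 ABA against WT ABA (0.038), UMAMIT44 for mannitol in bon123 (0.016), and the interactions of UMAMIT41 (0.048) and UMAMIT6 (0.011) with mannitol. With both, given in the order median-of-ratios scaling and length trend, they were UMAMIT1 (0.151 and 0.131), UMAMIT12 (0.147 and 0.108) and UMAMIT41 (0.171 and 0.051) for ABA in bon123, UMAMIT40 (0.079 and 0.111) and UMAMIT45 (0.087 and 0.303) for mannitol in bon123, and the interactions of UMAMIT1 with ABA (0.092 and 0.03) and of UMAMIT2 with mannitol (0.007 and 0.037). With a pseudocount of 0.1 they were the interactions of UMAMIT36 with ABA (-0.061) and of UMAMIT47 with ABA and mannitol (-0.779 and -0.803). Single libraries moved some values by over 1.5 times: SWEET1 for bon123 ABA against bon123 mannitol was 0.248 in place of 0.382 without bon123 ABA library 1, SWEET14 for bon123 mannitol against WT mannitol -0.461 in place of -0.727 without WT mannitol library 1, UMAMIT19 for bon123 ABA against WT ABA 0.306 in place of 0.511 without bon123 ABA library 1, SWEETIE for bon123 ABA against WT ABA -0.376 in place of -0.718 without bon123 ABA library 3, UMAMIT30 and UMAMIT42 for ABA in bon123 0.251 in place of 0.409 without bon123 ABA library 1 and 0.404 in place of 0.629 without library 3, UMAMIT31 for bon123 ABA against WT ABA -0.324 in place of -0.538 without WT ABA library 2, UMAMIT42 for bon123 mannitol against WT mannitol -0.399 in place of -0.618 without bon123 mannitol library 3, and UMAMIT8 for bon123 mock against WT mock 0.451 in place of 0.812 without WT mock library 1.

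Replicate numbers gave no sign of pairing the libraries, though with 3 libraries a group this check cannot show that same-numbered libraries shared no batch. Over 45 pairs of libraries with the same number, the correlation of deviations from the group means had a median of -0.028 (from -0.244 to 0.263) and exceeded 0.1 in 7. Over 90 pairs with different numbers the median was 0.004 (from -0.277 to 0.297), and the correlation exceeded 0.1 in 16. With the replicate block the counts were 32 and 37 for ABA and mannitol in WT, 42 and 26 in bon123, 40, 43 and 41 between genotypes, 20 and 37 for ABA against mannitol, and 32 and 28 for the interactions. Depth is unknown in TPM, so genes near 0 rest on the spread between 3 libraries alone.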
